A study of Mus musculus with 9 samples.

Results

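The cytosolic ribosomal protein genes encode the protein part of the ribosome that translates nuclear messages. Members were the protein-coding genes whose GENCODE M21 symbol is Rps or Rpl followed by a number, with or without a closing a, l, x or y and a further number, together with Rplp0, Rplp1, Rplp2 and Rpsa. The rule gave 83 of the 56398 features in the count table, 32 of the small and 51 of the large subunit. A further 6 symbols that match are annotated as pseudogenes and were not members. The rule also leaves out Fau, which encodes a ribosomal protein fused to a ubiquitin-like protein, and Rack1, a scaffold on the small subunit. These are given with the other translation genes.

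RNA was sequenced from BALB/c mice in 3 groups of 3 samples. The sham group was healthy colon. The model group was tumour tissue grown from injected CT26 cells, a colon carcinoma line of the same strain, in mice dosed daily with saline, which the labels also put at 6 g/kg. The AC group was CT26 tumour tissue from mice given a daily dose of 6 g/kg of a 2:1 mix of the herbs Astragalus and Curcuma phaeocaulis Valeton. The site of injection is not described, all tumours derive from 1 cell line, and colon is a mixed tissue, so that the comparison with colon sets a tumour of 1 origin against several cell types.

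A ribosome holds a small subunit, which reads the message, and a large subunit, which forms the peptide bond, and each holds nearly every one of its proteins in a fixed amount. The genes are highly expressed in dividing cells, are regulated mainly at translation through a pyrimidine tract at the start of the message, and have left many processed copies in mammalian genomes, since their messages were often reverse transcribed and inserted elsewhere. A few members have a second gene with a restricted pattern of expression, such as Rpl3l in muscle and Rpl10l and Rpl39l in testis.

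Total counts ran from 15690038 to 23476056 per library. Whether the libraries of a group come from different animals is not described, so p-values cover the spread of these libraries alone, and that spread could be technical. Epithelial markers marked the colon (Epcam 2809 to 2955 CPM, counts scaled to library size, in sham and at most 67.6 in tumours) and Vim the tumours (2517 to 4018 CPM against at most 58.1 in sham). Sham 1 stood apart from the other colon libraries. Ms4a1, a B cell marker, measured 308.4, 30.8 and 13.1 CPM in sham 1, 2 and 3 and at most 3.5 in tumours. Cd79a, another, measured 130.5, 23.96 and 9.27 CPM in sham 1, 2 and 3 and at most 2.57 in tumours. The 3 smooth muscle markers (Myh11, Des and Acta2) summed to 92.5, 921.5 and 1011 CPM in the sham libraries, and the 3 cell division markers (Mki67, Top2a and Ccnb1) to 405.5, 134.0 and 135.9 CPM. All CPM values are scaled by TMM factors over the 9 libraries. The part of these tissue differences in the results below was not tested, and fewer cells of a type and less RNA per cell cannot be told apart in bulk tissue.

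Members took a larger share of the counts in every tumour than in any colon library. The share was 2.54%, 1.26% and 1.12% in sham 1, 2 and 3. It was 4.02%, 3.54% and 4.29% in the model tumours and 4.12%, 4.06% and 4.26% in the AC tumours. The groups of tumours and colon did not overlap, sham 1 lay nearest to the tumours, and the tumour groups overlapped each other. This separation is one of raw count shares and was lost with TMM factors. Members then summed to 31710 CPM in sham 1, above the 31380 of model 2, and to 17360 and 15800 in sham 2 and 3. The mean was 1.64% ± 0.78 in sham, 3.95% ± 0.38 in model and 4.15% ± 0.10 in AC (SD, n = 3 each). The exact two-sided permutation test gave p = 0.1 for either tumour group against sham, the smallest p that 3 against 3 samples allow, and p = 0.5 between the tumour groups (0.15, 0.15 and 0.5 after Benjamini-Hochberg adjustment over 3 comparisons). Leaving out the mitochondrially encoded genes, which took 7.01% to 8.63% of counts in colon and 2.29% to 2.65% in tumours, gave 1.21% to 2.78% in colon and 3.63% to 4.39% in tumours.

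**Figure D1:**
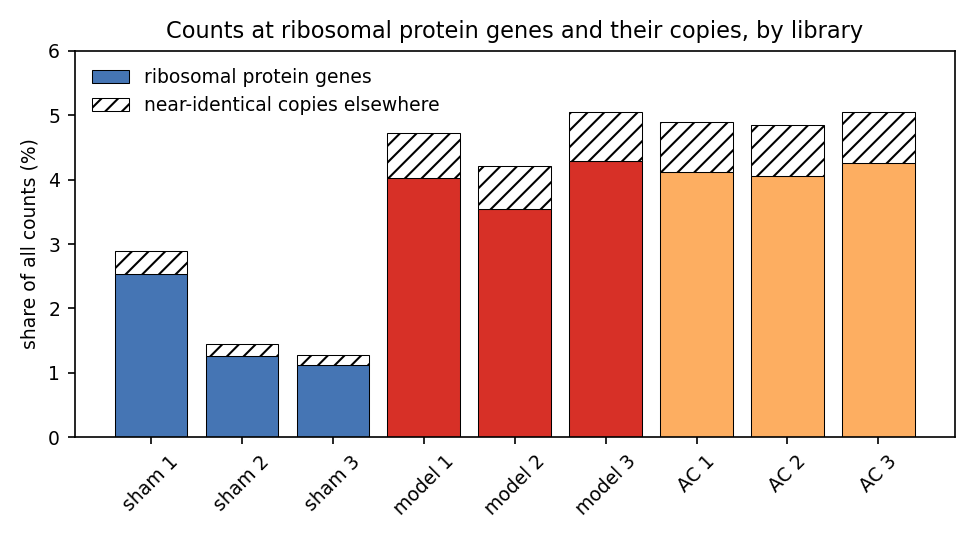
Share of all counts in each of the 9 libraries (vertical axis, percent) at the 83 ribosomal protein genes (solid bars) and at their near-identical copies elsewhere in the genome (hatched). The 3 sham libraries lie between 1.12% and 2.54% for the genes alone and the 6 tumours between 3.54% and 4.29%.

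Of the 83 members, 81 passed the filter on low counts. Rpl10l had no count in any library and Rpl3l had 3 counts over the sham, 19 over the model and 12 over the AC libraries. Rpl39l passed only through the tumours. On the deposited FPKM scale, which divides by gene length, the median member lay at 93.7 in sham, 198.5 in model and 214.6 in AC (means of 3 libraries per gene). Rplp1, an acidic protein of the stalk that recruits elongation factors, was highest in the tumours, with 646.5 ± 257.1 FPKM in sham, 1449 ± 234 in model and 1682 ± 57.7 in AC (SD, n = 3 each). Rps3a1 (704.7, 1367 and 1460 FPKM in sham, model and AC), Rpl4 (271.2, 1035 and 1056) and Rps4x (320.0, 997.8 and 1040) followed over the 9 libraries. At the other end, Rpl24 measured 0.744, 2.13 and 3.02 FPKM and Rpl21 0.884, 3.02 and 3.40 in the same order, although both encode core proteins of the large subunit. Both have near-identical copies elsewhere, 5 for Rpl24 and 74 for Rpl21. With those copies counted, Rpl24 still measured only 5.30, 5.24 and 7.22 CPM in sham, model and AC. Rpl21 with its copies measured 19.26, 30.63 and 32.97 CPM in the same order.

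Against colon, edgeR's quasi-likelihood test called 30 of 81 members higher in model tumours (37.0%) and 5 lower (6.17%). Over all 18228 genes tested, 36.8% were called higher and 32.9% lower, so that the share called higher was near the background and the share called lower was under it. The median log2 fold change was 0.57 over the members and 0.12 over all genes. For AC tumours, 32 of 81 were higher (39.5%) and 5 lower (6.17%), against 35.5% and 32.7% of 17832 genes, with medians of 0.60 and 0.10. The members called lower were Rpl26, Rpl30, Rps2, Rps14 and Rps27l. Rpl39l, which passed the filter only through the tumours, is included in this and every later count of members called higher against colon. All 30 members called higher in model tumours were also called higher in AC tumours, as were the 5 called lower, but both comparisons share the colon libraries. In the large subunit 21 of 49 tested members were called higher in model tumours and 2 lower (median 0.66), and in the small subunit 9 of 32 were higher and 3 lower (median 0.41).

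The number called depended on sham 1. Without it, 64 of 81 members were higher in model tumours and 5 lower (median 0.99), against 42.4% and 36.4% of all genes. In AC tumours 65 were higher and 5 lower (median 0.97), against 38.7% and 36.9%. Of the 81 members, 76 measured higher in sham 1 than in the mean of sham 2 and 3, by a median of 0.94 on the log2 scale, whereas 14960 genes over 1 CPM had a median of -0.12. Leaving out sham 2 or sham 3 instead gave 21 and 23 members higher in model tumours (25.9% and 28.4%). Over all genes 6035 of 19199 and 6120 of 18853 were higher, in both a larger share than among members. Without scaling factors, 49 members were higher and 2 lower (Rpl26 and Rpl30) in each comparison, with medians of 1.16 and 1.24, but the median of all genes then moved from 0.12 to 0.72 and from 0.10 to 0.75. All genes were then called higher in 49.7% and lower in 24.2% for model, and in 49.5% and 23.1% for AC.

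The fold changes of Rpl34, Rpl26, Rpl30 and Rps2 moved by more than those of any other member when near-identical copies of their coding sequence were counted with them. Copies were annotated genes outside the member's locus whose transcript matched the coding sequence at 90% identity or more over at least 80% of its length. Members themselves were not searched as copies, and each copy was assigned only to its best-matching member. There were 955 such copies of 77 members, 941 of them annotated as pseudogenes, and 29 copies of 24 members reached a mean of 50 CPM in at least 1 group. Whether the authors' counting kept reads that match several places is not given in the sources used here, so that the division of counts between a gene and its copies is uncertain. The copies described here were chosen after their values were seen. The windows below hold 60 bases of the coding sequence of 6 members and of the copy that changed beside each of them, and are shown because these few differing bases, in capitals, are what tells a gene from its copy. They were taken from GENCODE M21 transcripts, both read 5′ to 3′ on the coding strand, and positions count from the first base of the coding sequence: 147 to 206 in Rpl26, 66 to 125 in Rpl30, 102 to 161 in Rpl34, 388 to 447 in Rplp0, 626 to 685 in Rps3a1, 184 to 243 in Rpsa.
Rpl26: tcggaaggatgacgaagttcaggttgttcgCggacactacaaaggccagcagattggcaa
Gm15772: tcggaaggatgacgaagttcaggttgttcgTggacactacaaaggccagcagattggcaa
Rpl30: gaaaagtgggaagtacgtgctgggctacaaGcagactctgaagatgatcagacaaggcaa
Gm12191: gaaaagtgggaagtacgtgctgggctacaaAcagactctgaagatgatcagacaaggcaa
Rpl34: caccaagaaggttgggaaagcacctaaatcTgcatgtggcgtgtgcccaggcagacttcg
Rpl34-ps1: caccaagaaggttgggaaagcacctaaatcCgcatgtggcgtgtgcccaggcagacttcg
Rplp0: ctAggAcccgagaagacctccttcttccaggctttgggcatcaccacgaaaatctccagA
Gm8730: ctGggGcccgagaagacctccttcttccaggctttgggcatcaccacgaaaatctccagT
Rps3a1: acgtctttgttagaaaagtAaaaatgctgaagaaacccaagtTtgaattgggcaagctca
Rps3a2: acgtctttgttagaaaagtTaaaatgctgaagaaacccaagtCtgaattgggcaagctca
Rpsa: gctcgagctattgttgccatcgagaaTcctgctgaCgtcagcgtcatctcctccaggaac
Rpsa-ps10: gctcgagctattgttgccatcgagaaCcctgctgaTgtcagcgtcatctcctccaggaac

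Over the whole coding sequence, Rpl26 and Gm15772 differ at 2 of 438 bases, Rpl30 and Gm12191 at 1 of 348, and Rpl34 and Rpl34-ps1 at 2 of 354. Rplp0 and Gm8730 differ at 12 of 954 bases, Rps3a1 and Rps3a2 at 4 of 792 aligned bases, and Rpsa and Rpsa-ps10 at 6 of 885 aligned bases. All 6 copies are processed pseudogenes. On GRCm38, Gm15772 lies on chromosome 5 (3236431 to 3236868), Gm12191 on chromosome 11 (49678710 to 49679057) and Rpl34-ps1 on chromosome 6 (71124610 to 71124963). Gm8730 lies on chromosome 8 (102864845 to 102865798), Rps3a2 on chromosome 14 (88123017 to 88123808) and Rpsa-ps10 on chromosome 3 (150072658 to 150073542).

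Rpl26 (chromosome 11, 68901583 to 68906989), a large-subunit protein near the exit of the peptide tunnel, showed the largest fall. It measured 228.7, 74.8 and 74.5 CPM in colon, 8.78, 10.7 and 11.1 in model tumours and 7.08, 12.5 and 8.60 in AC tumours, so that colon and tumours did not overlap. The log2 fold change was -3.64 in model (SE 0.53, adjusted p = 0.00106) and -3.77 in AC (SE 0.57, adjusted p = 0.00142). Its copy Gm15772 moved the other way, from 230.9, 174.3 and 158.2 CPM in colon to 403.4, 344.9 and 428.5 in model and 390.0, 377.6 and 387.2 in AC (log2 fold change 1.07 in model, SE 0.21, adjusted p = 0.00354). The gene itself held 49.2%, 29.7% and 31.6% of the joint counts of gene and copies in colon and 2.11% to 2.98% in model tumours. With its copies added, Rpl26 had a fold change of 0.36 in model (SE 0.31, adjusted p = 0.327) and 0.32 in AC (adjusted p = 0.379).

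Rpl30 (chromosome 15, 34440505 to 34443640), also of the large subunit, went from 307.2, 106.6 and 112.5 CPM in colon to 26.8, 25.4 and 22.8 in model and 31.4, 34.03 and 26.3 in AC. No tumour overlapped colon, and the log2 fold change was -2.81 in model (SE 0.48, adjusted p = 0.00200) and -2.54 in AC (adjusted p = 0.00328). Gm12191 rose from 45.9, 21.6 and 9.13 CPM to 203.4, 182.8 and 192.4 in model (2.91, SE 0.58, adjusted p = 0.00385) and to 224.7, 256.6 and 199.8 in AC. The share of counts at Rpl30 itself was 71.1% to 87.2% in colon and 10.4% to 12.1% in the 6 tumours. Gene and copies together gave -0.06 in model (adjusted p = 0.913) and 0.15 in AC (adjusted p = 0.789).

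Rpl34 (chromosome 3, 130726831 to 130730398) did the reverse. It measured 8.24, 8.33 and 8.21 CPM in colon, 230.3, 181.8 and 207.8 in model and 212.6, 202.7 and 210.9 in AC, the highest fold change of any member detected in all 9 libraries (4.66 in model, SE 0.17, adjusted p = 1.45e-05). Rpl34-ps1 fell from 258.7, 147.3 and 125.7 CPM to 35.4, 30.5 and 41.6 in model (log2 fold change -2.31, SE 0.33, adjusted p = 0.000921) and 48.7, 48.9 and 35.8 in AC. Rpl34 held 3.07% to 6.12% of the joint counts in colon and 79.4% to 84.8% in tumours, and the joint fold change was 0.42 in model (adjusted p = 0.259) and 0.46 in AC (adjusted p = 0.206).

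Rpsa, the small-subunit protein also known as the laminin receptor, showed the same direction as Rpl34 and stayed higher with its copies. It measured 669.1, 315.6 and 258.2 CPM in colon, 1470, 1492 and 1707 in model and 1763, 1714 and 1645 in AC. The log2 fold change in model was 1.91 (SE 0.40, adjusted p = 0.00487), and 1.21 with copies (SE 0.30, adjusted p = 0.0108). Rpsa-ps10 fell from 328.0, 266.1 and 242.3 CPM to between 35.3 and 44.8 in the tumours. Rps18 went from 17.7, 13.5 and 16.8 CPM to 74.0, 73.1 and 78.7 in model and 82.4, 98.2 and 87.2 in AC, a fold change of 2.25 in model (SE 0.16, adjusted p = 6.20e-05) that was 1.12 with copies.

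For Rplp0 and Rps3a1, both abundant, a copy that was scarce in colon was prominent in every tumour. Rplp0, the neutral protein at the base of the stalk, measured 865.6, 762.1 and 722.2 CPM in colon, 973.4, 992.1 and 1007 in model and 1057, 881.7 and 1077 in AC. Its fold change of 0.35 in model missed the threshold (SE 0.15, adjusted p = 0.0781). Gm8730 rose from 95.9, 24.8 and 14.9 CPM to 984.6, 1038 and 1033 in model (4.48, SE 0.77, adjusted p = 0.00215), about the level of Rplp0 itself, and to 1148, 1022 and 1160 in AC. Counted together, Rplp0 and its copies rose by 1.42 in model (SE 0.18, adjusted p = 0.000562) and by 1.49 in AC (adjusted p = 0.000725). Rps3a1 measured 1499, 623.6 and 583.1 CPM in colon and 1045 to 1272 in the 6 tumours, sham 1 lying above all tumours. Rps3a2 rose from 9.33, 6.09 and 4.46 CPM to 297.8, 259.6 and 292.5 in model (5.42, SE 0.34, adjusted p = 4.15e-05).

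Rps2, a small-subunit protein at the entry of the message channel, changed sign. It measured 120.0, 171.5 and 204.7 CPM in colon, 101.5, 64.5 and 90.7 in model and 102.8, 95.8 and 62.6 in AC, a fall of every tumour below colon (log2 fold change -0.92 in model, SE 0.25, adjusted p = 0.0144). The call was lost without scaling factors (-0.31) and without model 3 (-0.90). Rps2-ps10 rose from 3.34, 4.97 and 3.19 CPM to 451.3, 540.1 and 535.6 in model (7.07, SE 0.25, adjusted p = 1.44e-05), while Rps2-ps13 fell from 77.8, 70.0 and 71.1 CPM to 10.8, 14.3 and 11.9 (-2.55, SE 0.16). With its 46 copies added, Rps2 was higher in model by 1.29 (SE 0.16, adjusted p = 0.000478) and in AC by 1.37 (adjusted p = 0.000485).

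**Figure D2:**
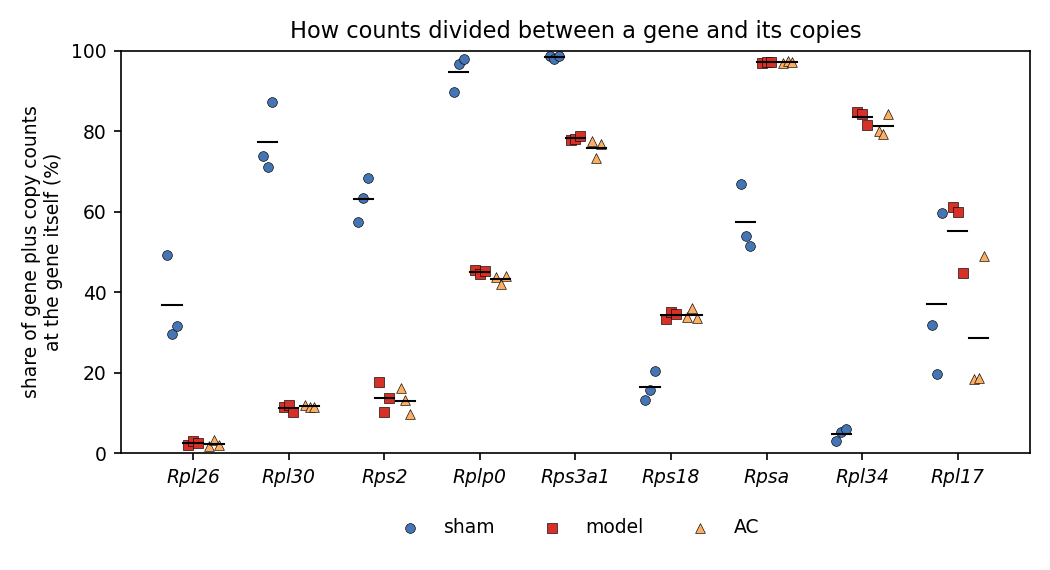
Percent of the counts of a gene plus its near-identical copies that lay at the gene itself, for 9 members in each library (circles sham, squares model, triangles AC; bars are means of 3). Rpl34 went from at most 6.12% in colon to at least 79.4% in tumours, and Rpl30 from at least 71.1% to at most 12.1%.

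Over 76 members with copies and with counts in every library, the mean share at the gene itself moved by 10 percentage points or more between sham and model for 13, of which 5 fell and 8 rose, and between model and AC for 2 (Rpl17 and Rps27). Among all copies tested, 64 of 200 were called higher in model tumours (all genes 36.8%) and 23 lower (all genes 32.9%). With the copies' counts added to each gene, 32 of 81 members were higher and 2 lower in both comparisons, against 36.9% and 33.1% of genes in model and 35.7% and 32.9% in AC. The members still lower were Rps27l and Rps14, the second named after its values were seen. The spread of the fold changes in model over 80 members (Rpl39l left out) narrowed from an SD of 1.01 to 0.63, and their range from -3.64 to 4.66 became -1.18 to 1.72.

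**Figure D3:**
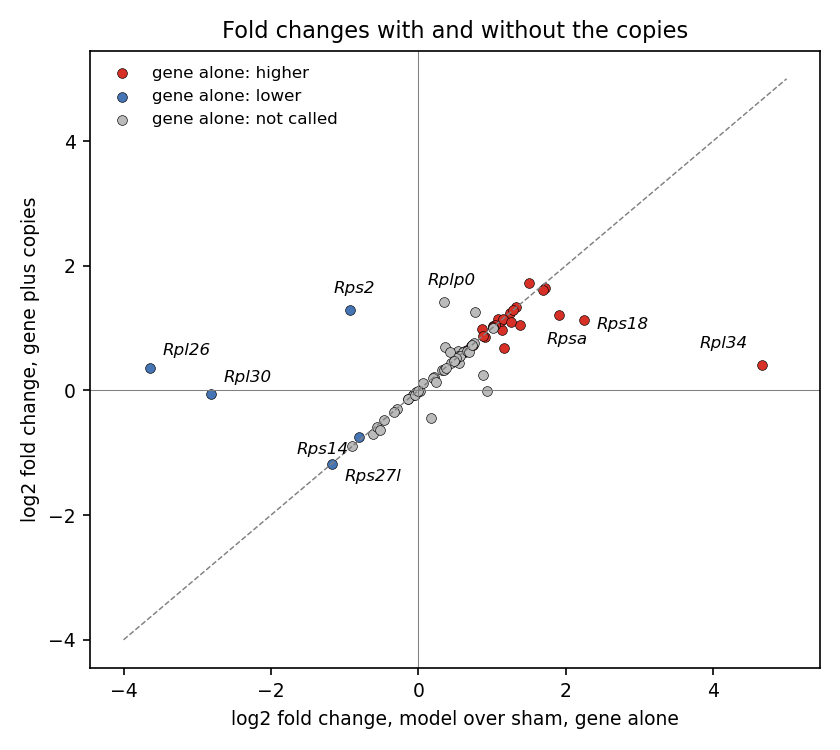
Log2 fold change of model over sham for 80 members (Rpl39l left out), for the gene alone (horizontal) and for the gene plus its near-identical copies (vertical), coloured by the call for the gene alone. Most members lie on the dashed line of equality, while the 4 farthest from it are Rpl34, Rpl26, Rpl30 and Rps2, followed by Rps18 and Rplp0.

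The members to which no near-identical copy was assigned at these limits include Rpl39l, Rpl3l, Rpl8, Rplp2 and Rps3. Rps3, a small-subunit protein at the entry of the message channel, measured 552.9, 394.2 and 369.0 CPM in colon, 872.2, 802.2 and 969.8 in model and 877.9, 937.3 and 1006 in AC. All tumours lay above colon, with a log2 fold change of 1.01 in model (SE 0.22, adjusted p = 0.00564) and 1.10 in AC (adjusted p = 0.00446). Rpl8, described after its values were seen, rose by 1.15 in model (SE 0.16, adjusted p = 0.000756). Rplp2, the partner of Rplp1 in the stalk, did not pass: it measured 265.3, 148.3 and 127.7 CPM in colon and 146.6 to 190.3 in the tumours (-0.15 in model, SE 0.32, adjusted p = 0.706).

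The members with roles outside the ribosome were divided. Rpl5, which with Rpl11 and 5S RNA binds and inhibits Mdm2, measured 716.9, 397.3 and 361.3 CPM in colon, 967.9, 861.6 and 932.8 in model and 843.8, 857.8 and 1060 in AC (0.91 in model, SE 0.31, adjusted p = 0.0345). This call was lost with the length-trend offset (0.70) and without sham 2 (0.70), sham 3 (0.66) or any 1 of the model libraries (0.87 to 0.99). Rpl11 itself overlapped between groups, at 407.9, 244.8 and 196.6 CPM in colon and 281.6 to 392.3 in tumours (0.21 in model, SE 0.31, adjusted p = 0.560). Rps6, the substrate of S6 kinase, was 719.9, 340.1 and 311.8 CPM in colon and 737.2 to 834.0 in tumours, above colon in all 6 but short of the threshold (0.72 in model, SE 0.36, adjusted p = 0.112). Without sham 1 its fold change was 1.25 (adjusted p = 3.02e-06) and that of Rpl11 0.61 (adjusted p = 0.00739). These p-values reflect the small spread of the close pair sham 2 and 3. Rpl13a, a member of an interferon-induced complex that silences messages, was low, at 24.1, 13.1 and 11.3 CPM in colon, 33.7, 33.6 and 39.5 in model and 44.5, 44.2 and 44.2 in AC, and rose by 1.14 in model (SE 0.33, adjusted p = 0.0182), a call lost without sham 2 (0.94) or model 3 (1.11).

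Among the variant genes, Rpl39l stood out. Rpl39l (chromosome 16, 10170226 to 10174911), the paralogue of the tunnel protein Rpl39, had 3, 1 and 0 counts in colon, or 0.233, 0.0801 and 0 CPM. It had 58.9, 40.2 and 46.9 CPM in model and 49.9, 47.6 and 57.0 in AC tumours. No tumour overlapped colon. Summed counts were 4 in colon and 3371 in model. Their ratio, after division by the TMM-scaled library sizes, was 488 in model (exact 95% interval 190.4 to 1792, counting error only). In AC the ratio was 508.3 (198.3 to 1867). As it passed the count filter only through the tumours, no test is given for it, although the counts of members called higher include it. No copy was assigned to Rpl39l at the stated limits. Rpl39 and the other members were left out of that search, and a copy assigned to Rpl39 could match Rpl39l as well. On the FPKM scale Rpl39l reached 74.5% ± 6.7 of Rpl39 in model and 73.2% ± 3.8 in AC (SD, n = 3 each) and at most 0.163% in colon. Rpl39 measured 310.6, 84.8 and 67.8 CPM in colon and 95.7 to 127.5 in tumours (-0.47 in model, SE 0.60, adjusted p = 0.503), and 0.59 without sham 1 (adjusted p = 0.00531).

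Rps27l, a p53-regulated paralogue of Rps27, was lower in all tumours, with 159.4, 76.2 and 68.7 CPM in colon, 51.9, 36.1 and 47.1 in model and 47.5, 36.5 and 42.1 in AC (-1.17 in model, SE 0.38, adjusted p = 0.0294). The call was lost without scaling factors (-0.58) and without model 2 (-0.99) or model 3 (-1.14). Its parent Rps27 overlapped between colon (186.2, 91.7 and 56.2 CPM) and tumours (37.2 to 98.7 CPM; -0.56 in model, SE 0.55, adjusted p = 0.390). Rpl22l1, whose parent Rpl22 restrains its level in other tissues, was 115.8, 36.4 and 27.0 CPM in colon and 42.7 to 75.7 in tumours (-0.03 in model, SE 0.59, adjusted p = 0.974). Rpl22 was 328.3, 121.5 and 105.6 CPM in colon and 135.0 to 189.8 in tumours (-0.14 in model, adjusted p = 0.801). For both, sham 1 lay above every tumour and the other colon libraries below every tumour, and without sham 1 they were higher in model (0.93 and 0.61, adjusted p = 0.0332 and 0.00787).

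Rpl7l1, a nucleolar relative of Rpl7, rose from 79.7, 55.0 and 51.9 CPM to 98.0, 88.3 and 100.9 in model and 114.1, 111.0 and 95.4 in AC (0.63 in model, SE 0.21, adjusted p = 0.0344). In model the call was lost with the length-trend offset (0.45) and without sham 2 (0.47), sham 3 (0.44) or any 1 of the model libraries (0.61 to 0.72). Rpl7, at 1341, 653.8 and 607.9 CPM in colon and 1198 to 1464 in tumours, did not pass (0.55, SE 0.35, adjusted p = 0.199). Rpl10 rose by 1.12 in model (SE 0.21, adjusted p = 0.00290), from 604.0, 429.3 and 420.2 CPM to between 980.6 and 1124 in the tumours, while Rpl10l stayed without a count. Rpl3, which helps to form the peptidyl transferase centre, went from 400.8, 239.0 and 224.6 CPM to between 790.6 and 861.5 (1.51 in model, SE 0.27, adjusted p = 0.00260).

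**Figure D4:**
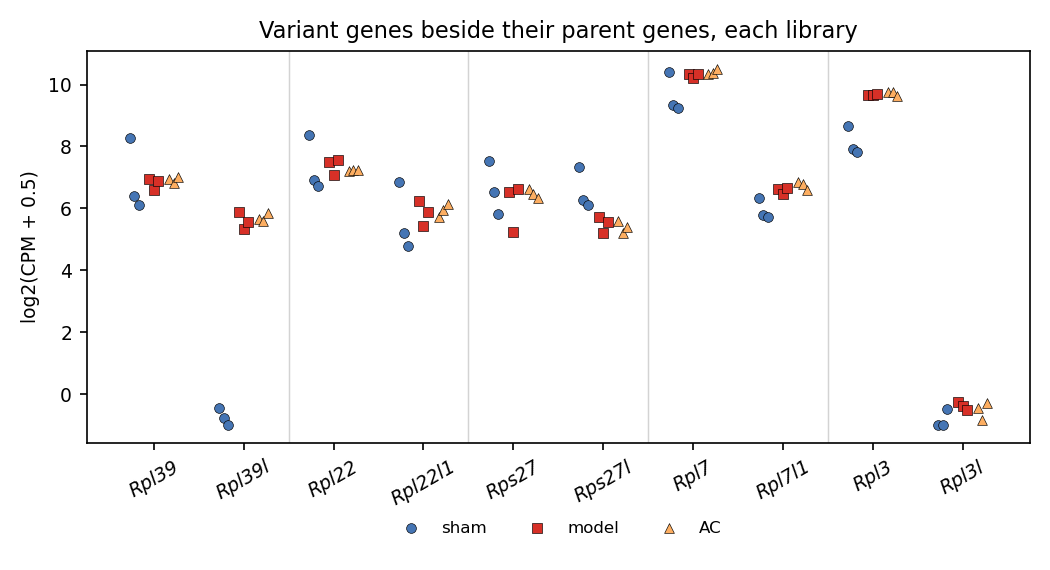
Levels of 5 variant genes and their parent genes in each library, on the log2(CPM + 0.5) scale (circles sham, squares model, triangles AC). Rpl39l is near the floor in the 3 sham libraries and between 40.2 and 58.9 CPM in the 6 tumours, and sham 1 is the highest sham library for most other genes shown.

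Longer members had higher fold changes. Over 80 members (Rpl39l left out), the log2 fold change in model with copies added had a Spearman correlation of 0.69 with coding length (Pearson 0.68 on the log length), and 0.53 (Pearson 0.36) without the copies. These correlations are across genes of the same 6 libraries, which share depth and preparation, and are a description. Over all 81 tested members, the median fold change of the gene alone was -0.47 in the 11 members of up to 300 coding bases, 0.41 in 28 of 300 to 450, 0.77 in 19 of 450 to 600, 1.02 in 20 of 600 to 900 and 1.33 in the 3 above 900, which are Rpl3, Rpl4 and Rplp0. All protein-coding genes in the same bins had medians of -0.87, -0.48, -0.33, -0.25 and -0.04, so that each bin of members lay above the bin of all genes and both increased with length. A correlation with coding length was also present between colon libraries. The ratio of sham 1 to sham 2 and 3 had a Spearman correlation of -0.51 over 81 members and -0.22 over 12581 protein-coding genes. With a length-trend offset in the fit, 29 members were higher and 5 lower in model (median 0.45), beside 5940 and 6809 of 18228 genes.

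**Figure D5:**
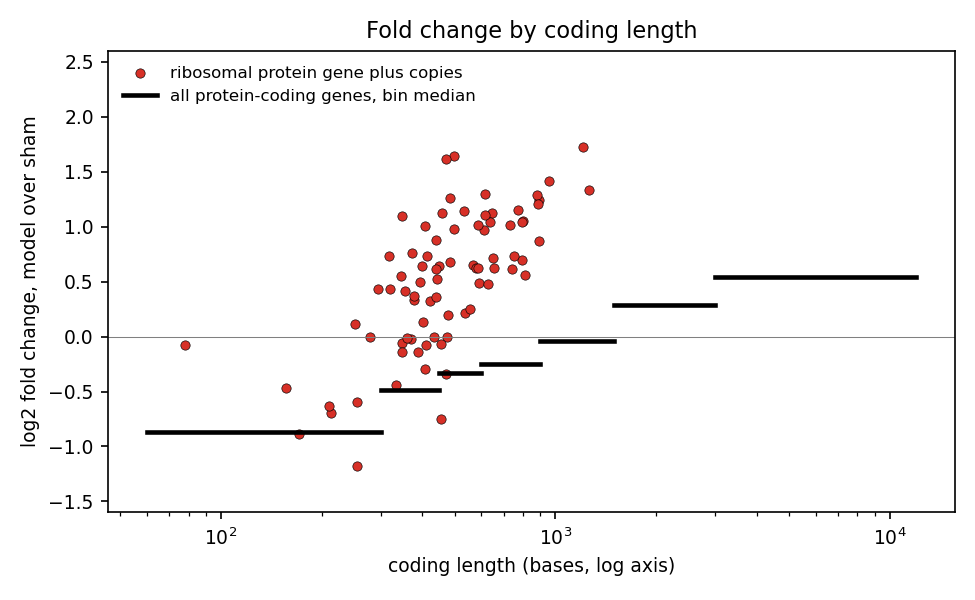
Log2 fold change of model over sham, gene plus copies, for 80 members (points, Rpl39l left out) against coding length in bases on a log axis. Black bars are the medians of all protein-coding genes tested in each length bin, from -0.87 below 300 bases to 0.54 above 3000 bases.

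The annotated starts of members were searched for the pyrimidine tract of this family's messages, the 5′ terminal oligopyrimidine motif, read as a C at the first transcribed base and at least 4 bases of C or T after it. RefSeq promoter windows (GRCm38.p6) matched 63 of 83 members by symbol, in 75 windows. The motif stood at the annotated start in 17.3% of these and in 2.51% of all 32851 windows. On the opposite strand it stood at the same place in 2.67% and 3.38%. Annotated starts can miss the true start by a few bases, so that no match says only that the letters are not at that base. It stood in 13 member windows. Rplp2, Rps27 and Rpl38 (-0.61) hold the motif, and their fold changes in model were negative and not called. Rpl14 (0.535), Rpl28 (0.73), Rpl35 (0.755) and Rpl35a (0.173) hold it as well, and of these only Rpl28 was called. Rps15a and Rps21 also hold it. The lines below print 20 bases before and 15 bases from the start, with the pyrimidine run in capitals, for 4 members that hold it. The fold changes of these 4 genes alone in model were 0.72 (Rps6), 0.86 (Rps10), 1.13 (Rpl15, chosen after its values were seen) and 2.25 (Rps18).
Rps6 (chr4:86857353-86857387, minus strand): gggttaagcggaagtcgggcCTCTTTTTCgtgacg
Rps10 (chr17:27635230-27635264, minus strand): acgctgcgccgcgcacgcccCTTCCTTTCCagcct
Rps18 (chr17:33955651-33955685, minus strand): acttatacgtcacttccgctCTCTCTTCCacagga
Rpl15 (chr14:18270972-18271006, minus strand): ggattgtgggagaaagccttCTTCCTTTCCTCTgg

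Between AC and model tumours, edgeR called 0 of 81 members and 0 of 17137 genes (0.0%). At an unadjusted p under 0.05 it held 5 members and 2253 genes, and DESeq2 called 0 members and 1.79% of genes. The median fold change was 0.03 over the members, which ranged from -0.93 to 0.97, and 0.01 over all genes. The smallest p among members was that of Rpl29, at 1.82, 2.64 and 2.13 CPM in model and 4.56, 4.87 and 3.51 in AC (0.97, SE 0.25, adjusted p = 0.257). The groups did not overlap, at a level of few reads, and with its 55 copies added the fold change was 0.38. Rps10 (0.56, SE 0.15, adjusted p = 0.257) and Rpl13a (0.31, SE 0.10, adjusted p = 0.277) were next among members above 0, and Rps12 (-0.29, SE 0.15, adjusted p = 0.446), Rpl17 (-0.93, SE 0.46, adjusted p = 0.461) and Rpl7a (-0.17, SE 0.10, adjusted p = 0.510) among those below.

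Rpl17, a large-subunit protein at the tunnel exit, divided the AC tumours. It measured 306.5, 250.6 and 236.7 CPM in model and 87.8, 90.4 and 237.1 in AC, AC 3 lying with the model tumours. Its share of the joint counts with its copies was 61.2%, 59.9% and 44.7% in model and 18.4%, 18.6% and 49.1% in AC. In colon the share also varied, at 31.78%, 19.65% and 59.7% in sham 1, 2 and 3. Gene and copies together measured 500.5, 418.5 and 529.7 CPM in model and 477.0, 485.4 and 482.9 in AC, with a fold change of -0.01. With all libraries Rpl17 was not called (-0.93, adjusted p = 0.461). Without AC 3, Rpl17 alone was the 1 member called lower (-1.59, SE 0.13, adjusted p = 0.00573), with 3.21% of all genes called. That run leaves out the 1 AC value that overlapped model, so its p-value cannot decide whether the groups differ. The summed CPM of 6 epithelial markers was 868.2 in AC 3 and 282.0 and 261.7 in AC 1 and 2, and 427.1, 220.9 and 182.7 in the model tumours. It was 21600, 33620 and 34920 in sham 1, 2 and 3. Whether these sums bear on the Rpl17 values was not tested. Without both AC 3 and model 1, the tumours with the highest sums, Rpl17 had a fold change of -1.46 (adjusted p = 0.0117). The same limit applies, since AC 3 is again left out.

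Other genes of translation were compared by lists. Of 36 genes of ribosome biogenesis, 33 rose in model tumours and 0 fell, beside 36.8% and 32.9% of all genes (median 1.99, against 0.57 for the members and 0.12 for all genes). Polr1a, the large subunit of RNA polymerase I, went from 15.7, 14.3 and 14.9 CPM to 146.3, 151.6 and 129.6 (3.27, SE 0.15, adjusted p = 1.95e-05). Npm1, a nucleolar chaperone, went from 419.9, 139.2 and 123.4 CPM to 1025, 1010 and 962.4 (2.13, SE 0.52, adjusted p = 0.00954). In AC tumours 33 rose and 0 fell as well (median 2.15), beside 35.5% and 32.7% of all genes. Without sham 1, 34 rose and 0 fell in either comparison, beside 42.4% of all genes higher in model and 38.7% in AC. Of the other ribosomal genes that the rule leaves out, Rack1 rose in model (1.46, SE 0.21, adjusted p = 0.000919) and Fau fell (-0.73, SE 0.19, adjusted p = 0.0134) but was not called without scaling factors.

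Of 9 elongation factor genes tested, 5 rose and 1 fell in model (median 0.59), beside 36.8% and 32.9% of all genes. Without sham 1, 8 of 10 tested rose and 2 fell, beside 42.4% and 36.4%. Eef1a1, which brings the charged tRNA, rose by 1.64 (SE 0.15, adjusted p = 0.000154) and Eef2 by 1.59, and Eef2k, the kinase that inhibits Eef2, was the gene that fell (-1.11). Of 29 initiation factor genes, 16 rose and 3 fell (median 0.82), beside the same 36.8% and 32.9%. Eif3a rose by 1.81, and Eif2s2 (-2.29), Eif4a2 (-1.68) and Eif6 (-1.32) fell. Of 16 tested genes of translation control, 7 rose and 4 fell (median 0.41), counts near those shares of all genes, and without scaling factors 10 rose and 1 fell, beside 49.7% and 24.2% of all genes. Myc, which drives ribosome synthesis, was 16.4, 8.81 and 10.1 CPM in colon and 122.5, 155.0 and 95.5 in model (3.41, SE 0.34, adjusted p = 0.000206). Eif4ebp1, a repressor of cap-dependent translation, rose by 4.25, and Larp1, which binds the pyrimidine tract of ribosomal protein messages, by 1.05. These 3 genes all rose, and the 4 genes of translation control that fell are not named with them. With DESeq2, 7 of the 16 rose and 6 fell.

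For genes of the mitochondrial ribosome, a separate particle, the sign of the median depended on the scaling. Over all genes the medians were 0.12 in model and 0.10 in AC, and 0.72 and 0.75 without scaling factors. The median of this list lay under them in each case. Of 77 tested, 7 rose and 39 fell in model (median -0.55), beside 36.8% and 32.9% of all genes. Without scaling factors 14 rose and 19 fell (median 0.05), beside 49.7% and 24.2%. The count lower was then near the background and the count higher still under it. In AC tumours 9 rose and 35 fell (median -0.47), beside 35.5% and 32.7%, and 20 rose and 12 fell without scaling factors (median 0.18), beside 49.5% and 23.1%. Mrpl10 fell from 65.4, 79.9 and 79.3 CPM to 27.8, 25.7 and 26.3 (-1.47, SE 0.13, adjusted p = 0.000146) and Mrps10 rose by 1.56. None of these lists held a gene called between AC and model tumours by edgeR, which called 0 of 17137 genes. DESeq2 called 2 biogenesis genes, 1 initiation factor gene and 1 mitochondrial ribosome gene higher in AC, beside 1.79% of all genes in either direction. Bop1 of the biogenesis list measured 0.60 (SE 0.17, adjusted p = 0.264) and Mrps23 of the mitochondrial ribosome 0.50 (SE 0.12, adjusted p = 0.249).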

How the data were processed

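RNA-seq was available for 3 sham, 3 model and 3 AC libraries, grouped by the labels. The authors made raw counts per gene with featureCounts 1.5.0-p3, with mm9 named as the build, per the submitters' processing notes. Aligner, strand and treatment of reads that match several places: not given in the sources used here. The lengths implied by the deposited FPKM values came within 1% of GENCODE M21 exons (GRCm38) for 78 of 82 members, so symbols, coordinates and sequences are from that annotation. edgeR 4.0.16 (TMM, filterByExpr, robust quasi-likelihood test) compared each pair of groups, with Benjamini-Hochberg adjustment over all genes and a threshold of 0.05. CPM values use TMM factors over 9 libraries and fold changes those of the 6 libraries compared. Alternatives used DESeq2 1.42.0 and limma 3.58.1 on log2(FPKM + 1) and log2(FPKM + 0.1). Copies were found with blastn 2.17.0. The fits were tested on simulated data.

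Members and lists were chosen with earlier results of these data known. The definition of a copy was changed after counts were seen: a match that is not a pseudogene was then kept only if its exons were at most 2 times the coding length, and 24 matches were set aside. The minimum of 50 CPM and the shift of 10 points were also chosen after values were seen. Named members are the variant genes and their parents, the 4 highest and 4 lowest fold changes in each comparison with colon, the 3 smallest p in each direction between tumours, the 4 highest and 4 lowest by FPKM, and Rplp0, Rplp1, Rplp2, Rpsa, Rpl5, Rpl11, Rpl13a, Rps6 and Rps3. From other lists they are up to 3 genes with the smallest p in each direction. Libraries of a group differed by more than sampling noise, so each counted as 1 replicate. The chi-square per degree of freedom ran from 2.88 (sham 2 and 3) to 104.7 (sham 1 and 3). A few genes are not reported here.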

Additional observations from a re-analysis of the deposited data

How the results depend on the processing

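Precision is limited by 3 libraries per group, by sham 1 and by low counts of Rpl3l, Rpl24 and Rpl29. Without scaling factors, 49 members were higher and 2 lower in both comparisons with colon, with medians of 1.16 in model and 1.24 in AC. On log2(FPKM + 1) and log2(FPKM + 0.1), which carry no TMM scaling, limma called 54 higher and 2 lower in each comparison. The medians were 1.22 and 1.27 in model and 1.32 and 1.37 in AC. With a pseudocount of 1, 9424 of 18228 genes were higher and 4386 lower in model. In AC 9193 of 17832 were higher and 4103 lower. With 0.1 the counts were 9335 and 4422 in model and 9120 and 4135 in AC. With copy counts added, an alternative chosen after seeing the data, 32 were higher and 2 lower in both, and the share of counts became 4.66% in model and 4.93% in AC. In AC the share moved to 4.25% without mitochondrially encoded genes and to 4.45% with pseudogene counts added. Leaving out each library in turn gave 21 to 64 members higher and 2 to 5 lower in model against sham, 25 to 65 higher and 3 to 5 lower in AC against sham, and 0 to 1 lower in AC against model. Over all 18853 to 19464 genes tested, these runs gave 6035 to 8253 higher and 5558 to 7086 lower in model against sham. In AC against sham they gave 5637 to 7353 higher and 5262 to 7007 lower of 18597 to 18976 genes. Leaving out model 1 and AC 3 together gave 1 lower member, Rpl17 (-1.46), and against sham is the same as leaving out either alone. Over all genes, AC against model had 84 higher and 222 lower with DESeq2, 23 and 82 with no filter and 150 and 419 without AC 3. Of the members called higher, 19 of 30 in model and 24 of 32 in AC held the call in every setting, and 0 of the 5 called lower did. These settings include those that add copy or pseudogene counts. Without the added counts, 20 and 25 held, Rpl34 being the member gained. Of the 5 called lower, 2 (Rpl26 and Rpl30) then held in each comparison. The share of all genes that held a call in every setting is not given here. Rpl39l, which passed the filter only through the tumours, is among the 19 and the 24. Upper-quartile factors, DESeq2, no filter, all 9 libraries in one fit and the length-trend offset kept every count of called members within 1.5 times.

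Some signs changed. Leaving out each library in turn, Nop10 ran from -0.46 to 0.46, Rpl22 from -0.48 to 0.61, Rpl22l1 from -0.44 to 0.93 and Rpl39 from -0.88 to 0.59 in model against sham, and Rpl22 from -0.61 to 0.33 and Rpl39 from -0.73 to 0.60 in AC against sham, each highest without sham 1. With copy counts added, Rpl26 went to 0.36 in model and 0.32 in AC, Rpl30 to 0.15 in AC, and Rps2 to 1.29 in model and 1.37 in AC. Rps2 was 1.29 and 1.38 with pseudogene counts added. Without scaling factors Rheb, negative with TMM factors, went to 0.46 in AC against sham, and on the FPKM scale it was 0.44 and 0.48. The cause was not tested.

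The replicate numbers of the titles did not pair the samples. Deviations of same-numbered samples correlated from -0.56 to 0.45 over the groups, and model 1 correlated best with AC 3 (0.68). With the replicate block, 32 members were higher and 5 lower in model against sham (median 0.67), beside 6275 and 5499 of 18228 genes. In AC against sham 32 were higher and 4 lower (0.72), beside 5966 and 5337 of 17832 genes. Between tumours 0 were called.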
